A study of Mus musculus with 8 samples.

Results

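The ribosomal protein genes, 79 of the 18174 gene symbols in the 8 tables, were followed cell by cell in LT-HSC, the long-term stem cells of the blood, of aged mice. They were chosen by symbol alone: every row named Rps or Rpl with a number and an optional a, x, y or l ending, plus Rplp0, Rplp1, Rplp2 and Rpsa. There were 30 small subunit and 49 large subunit genes, and 72 of the 79 had a row in every table.

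A cytoplasmic ribosome has a small subunit, which reads the mRNA, and a large subunit, which joins amino acids. Each ribosomal protein is needed in about equal number, and the mRNAs of the family are abundant, short and known for a tract of pyrimidines at their 5′ end (the 5′ TOP motif), through which growth signals control their translation. Stem cells of the marrow are known for a low rate of protein synthesis, and loss of 1 copy of several members causes Diamond-Blackfan anaemia, a failure of red cell formation.

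The cells came from the marrow of 18-month-old male wild-type C57BL/6J mice without treatment. They were sorted as negative for lineage markers, CD48 and CD34 and positive for CD150, Kit and Sca1, and then as positive (Dlk1+) or negative (Dlk1-) for Dlk1, a surface protein related to Notch ligands. RNA was read with a plate-based 3′ end method (mCEL-Seq2) that marks each cell with a barcode and each molecule with a unique molecular identifier (UMI), so a value counts transcripts and needs no correction for gene length. There were 4 libraries of each group, replicates 1 and 2 on plate 5 and replicates 3 and 4 on plate 6. The labels state 96 cells a library and name no animal for a library, so p-values measure the spread between libraries, which may be technical. Dlk1+ cells lay on barcodes 1 to 96 and Dlk1- cells on those from 97 on of the same barcode set, so barcode range and group cannot be told apart.

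Barcodes of at least 1000 transcripts gave 220 Dlk1+ cells (86, 27, 26 and 81 in replicates 1 to 4) and 321 Dlk1- cells (96, 36, 95 and 94). The summed transcripts ranged from 230443 to 517559 in the Dlk1- libraries. They were 395691, 102499, 39073 and 456925 in the Dlk1+ libraries, so replicate 3 was the shallowest, with a median of 1300 transcripts per cell against 3421 to 5584 in the other libraries. Dlk1 itself was at 358 to 640 CPM (transcripts scaled to the library total) in Dlk1+ and 3.86 to 50.3 CPM in Dlk1- libraries. Marker genes of stem cells summed to 2048 to 3354 CPM over all libraries and those of T cells to 0. Markers of myeloid cells summed to 5166 CPM in Dlk1+ replicate 4, 0 in Dlk1+ replicate 3 and 190.99 to 366.9 CPM in the other 6 libraries. Dlk1+ replicate 3 also had the lowest sum of erythroid markers, 307 CPM against 556 to 920 CPM in the other libraries, and the highest of megakaryocyte markers, 768 CPM against 207 to 423 CPM. Cycling markers were highest in Dlk1+ replicate 2, at 1113 CPM against 369 to 786 CPM. The part of these in the results on members was not tested.

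The 5′ starts of 5 members are shown because the family is known for this feature and because they include members that later stand at opposite ends in 1 library. Each line gives 15 bases before and 15 bases from the annotated RefSeq start (GRCm38.p6), and the capitals mark the run of C and T nearest to that start.
Rps6: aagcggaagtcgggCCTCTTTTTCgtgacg
Rplp2: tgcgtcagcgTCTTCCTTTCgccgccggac
Rpl35a: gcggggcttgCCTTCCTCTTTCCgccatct
Rpl15: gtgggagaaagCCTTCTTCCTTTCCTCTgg
Rps24: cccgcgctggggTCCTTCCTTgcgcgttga
These windows lie at chr4:86857353-86857382 on the minus strand, chr7:141447636-141447665 on the plus strand, chr16:33056467-33056496 on the plus strand, chr14:18270972-18271001 on the minus strand and chr14:24490663-24490692 on the plus strand. Of the 59 members with a RefSeq start sequence, 13 (22.03%) had at least 1 annotated start with a C followed by 4 bases that were each C or T, against 3.01% of the 27025 genes in that table. Only the gene's own strand was searched. Among the starts shown, Rps6, Rplp2, Rpl35a and Rpl15 meet this and Rps24 does not, so the display is not typical of the family. A run of 8 bases of C or T between 50 before and 50 after the start was present for 50 of the 59 (84.7%), against 39.3% of all genes. The letters describe annotated starts, which need not be the starts used in these cells.

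The median level of a member, as a mean over the 8 libraries, was 1335 CPM. There were 50 members at 1000 CPM or more and 8 below 100 CPM. Among the highest were Rpl23, Rps23, Rps16, Rps14, Rps9, Rpl10a, Rps3a1 and Rps20, from 3426 down to 2452 CPM. The place of Rpl10a rested on Dlk1+ replicates 2 and 3, at 3236 and 5408 CPM. Its Dlk1- mean was 1881 CPM, below members not in that list such as Rplp1 (2519 CPM), Rps6 (2404 CPM) and Rpl21 (2268 CPM). Rpl23 lies at the interface between the subunits, Rps23 at the decoding centre and Rps14 is the member lost in the human 5q deletion syndrome. In the Dlk1- libraries neighbours in this order were close: Rpl23 was at 3106 ± 308 CPM and Rps23 at 2924 ± 320 CPM (SD, n = 4), a gap smaller than either spread.

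Some low rows sit beside a near-identical copy that carried the signal. Rps27 was at 8.41 ± 6.0 CPM in Dlk1- libraries while its retrogene row Rps27rt was at 1199 ± 196 CPM. Rpl9 was at 32.3 CPM and Rpl9-ps6 at 1927 CPM, and Rpl23a was at 225 CPM and Rpl23a-ps3 at 2401 CPM, all as means of the 4 Dlk1- libraries. How reads of such copies were divided is not given in the sources used here, so levels of these members are uncertain. The last 300 bases of 44 of 78 members held more than 50% of their 40-base windows in a transcript of another gene of GENCODE M21. For 6 protein-coding symbols that fit the naming rule (Rpl24, Rpl29, Rpl3l, Rpl7a, Rps2 and Rps4x) no row was analysed here.

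The paralogue pairs differed widely. Rpl22, known for a role in lymphocyte development, was at 818.6 ± 158.1 CPM and Rpl22l1 at 447 ± 76.6 CPM in Dlk1- libraries (SD, n = 4). Rpl36a was at 1259 ± 130.8 CPM against 148.5 ± 12.3 CPM for Rpl36al, and Rpl7 at 1464 ± 212 CPM against 66.2 ± 16.1 CPM for Rpl7l1. In each of these pairs the lowest Dlk1- library of the first gene lay above the highest of the second. Rps27l, a target of p53, was at 92.3 ± 6.4 CPM. Rpl10l had 2 transcripts, both in Dlk1+ replicate 1, and Rpl39l had 1, in Dlk1+ replicate 4. Rps4l was not analysed here.

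The question of the sort, which mRNAs differ between Dlk1+ and Dlk1- stem cells, gave no called member. Of the 74 members tested with limma-voom, 0 passed a false discovery rate of 0.05 in either direction, while 2 of 5666 genes did (0.0353%). The lowest adjusted p of a member was 0.577, for Rps24. At an unadjusted p below 0.05, 11 members were lower in Dlk1+ libraries, where the background was 4.18% of genes tested, and 0 were higher, against 2.31%. No member had all Dlk1+ libraries below all Dlk1- libraries, against 2.03% of genes, and none had them above, against 1.11%. The limma-trend test on log2 CPM also called 0. On simulated data of this comparison with 5666 genes, the test recovered 3.5% of genes changed 2-fold and 70.5% of those changed 4-fold. These are percentages of all changed genes, and those that the filter left out before the test count as missed. The simulation gave every gene a dispersion of 0.1 and the same change in all Dlk1+ libraries. Most 2-fold changes were missed even so. It did not include a spread such as that of Rps24, 678 ± 830 CPM (mean ± SD) in Dlk1+ libraries. Its percentages therefore do not give the recovery for such genes. Recovery was also not computed for genes at the level of the members alone.

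The median log2 fold change (Dlk1+ over Dlk1-) of the 74 tested members was -0.25, beside -0.04 over all genes tested. It was -0.23 for the 28 small subunit genes and -0.31 for the 46 large subunit genes, and 53 members were below 0 and 21 above. This median depended most on Dlk1+ replicates 3 and 4. Without Dlk1+ replicate 3 it was -0.06, beside 0.00 for all genes, and without Dlk1+ replicates 2 and 3 it was -0.04. Without Dlk1+ replicate 4 it was -0.40, and 2 members, Rps24 and Rpl23a, passed the test as lower (20 genes did in all). The Rpl23a row is the minor one of a near-identical pair, and with Rpl23a-ps3 added the sum was 0.82, 1.23 and 0.72-fold in Dlk1+ replicates 1 to 3 against the Dlk1- libraries of their plates.

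As a share of all transcripts, the family made up 7.87%, 11.8%, 9.27% and 12.4% in Dlk1+ replicates 1 to 4 and 9.74%, 10.6%, 9.87% and 12.9% in Dlk1- replicates 1 to 4. The groups overlapped: the means were 10.3% ± 2.14 and 10.8% ± 1.46 (SD, n = 4), a difference of -0.42 percentage points that is smaller than either spread. Its direction rested on single libraries: leaving out Dlk1+ replicate 1 gave 0.40, and leaving out Dlk1- replicate 4 gave 0.28. Replicate 4 was the highest library in both groups. At the extremes the share went against 2 abundant rows of predicted genes, Gm10800 and Gm26870. Together they took 32.8% of transcripts in Dlk1+ replicate 1 but 10.1% and 11.7% in Dlk1+ and Dlk1- replicates 4. In the other libraries these rows took 22.8% to 26.7%, and the share did not follow their order. Dlk1- replicate 2, at 26.7%, had a share of 10.6%, and Dlk1+ replicate 3, at 24.2%, had 9.27%. With these rows and the mitochondrial genes left out of the total, the share was 13.99%, 17.23%, 14.82% and 15.89% in Dlk1+ and 15.35%, 16.40%, 15.27% and 16.80% in Dlk1- libraries. The groups then still overlapped, at 15.48% ± 1.40 and 15.955% ± 0.765.

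**Figure D1:**
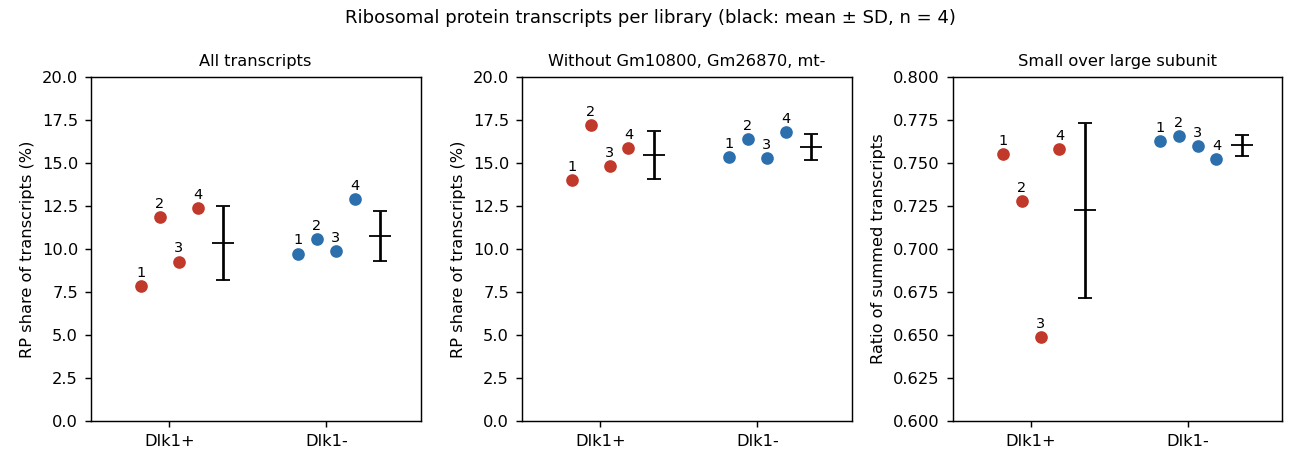
Ribosomal protein share of transcripts per library in percent (left, of all transcripts; middle, without Gm10800, Gm26870 and mitochondrial genes) and summed small over large subunit transcripts (right, axis from 0.6). Points are libraries numbered by replicate, and bars are the mean ± SD of 4; the groups overlap in both shares, and the ratio of Dlk1+ replicate 3 (0.649) lies below the others.

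The balance of the subunits was tight in 6 libraries and lower in 2. Summed small over summed large subunit transcripts were 0.763, 0.766, 0.760 and 0.752 in Dlk1- replicates 1 to 4. In Dlk1+ they were 0.755, 0.728, 0.649 and 0.758. Dlk1+ replicates 1 and 4 thus lay within the Dlk1- range, replicate 2 below it and replicate 3 lowest. The group means were 0.723 ± 0.051 and 0.760 ± 0.006 (SD, n = 4), a difference of -0.038 that shrank to -0.013 without Dlk1+ replicate 3. The low ratio was also present in that library's 49 cells of 500 to 1000 transcripts: adding them gave 0.657.

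Dlk1+ replicate 3 also differed gene by gene. Rps24, a small subunit protein needed for 18S rRNA processing, was at 619.5, 146.4, 76.8 and 1868 CPM in Dlk1+ replicates 1 to 4 and at 1472, 1747, 1512 and 1717 CPM in Dlk1- replicates 1 to 4. Replicates 1, 2 and 3 of Dlk1+ were below every Dlk1- library and replicate 4 was above all of them. The log2 fold change of Rps24 was -1.91 ± 0.57 (SE), with an adjusted p of 0.577 by limma-voom. It was -1.19 without Dlk1+ replicate 3, -0.47 without Dlk1+ replicates 2 and 3, and -2.57 without Dlk1+ replicate 4. Rps19, the member most often mutated in Diamond-Blackfan anaemia, was at 652, 322, 0 and 1328 CPM in Dlk1+ and 1139, 1165, 1027 and 1334 CPM in Dlk1- libraries. Rpl39, a small protein of the exit tunnel for the new chain, was at 827, 644, 0 and 1337 CPM against 1095, 1208, 1095 and 1360 CPM. In both genes, as for Rps24, Dlk1+ replicates 1 to 3 were below every Dlk1- library. Replicate 4 lay within the Dlk1- range for both, whereas it was above that range for Rps24.

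The opposite was seen for other members. Rpl10a, a protein of the L1 stalk, was at 1592, 3236, 5408 and 2198 CPM in Dlk1+ and 1780, 1700, 1906 and 2139 CPM in Dlk1- libraries. Rps16 was at 2180, 3490, 5151 and 2801 CPM against 2452, 2655, 2379 and 3091 CPM. Rpl26 was at 1354, 2413, 3074 and 2066 CPM against 1511, 1826, 1712 and 2101 CPM. In these genes Dlk1+ replicate 3 was highest, replicate 2 next, and replicate 1 below every Dlk1- library. Among the highest log2 fold changes were 0.51 for Rpl10a, 0.32 for Rpl10 and 0.25 for both Rps16 and Rps23, none of which passed the test. That of Rpl10a was 0.22 without Dlk1+ replicate 3 and 0.05 without Dlk1+ replicates 2 and 3.

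**Figure D2:**
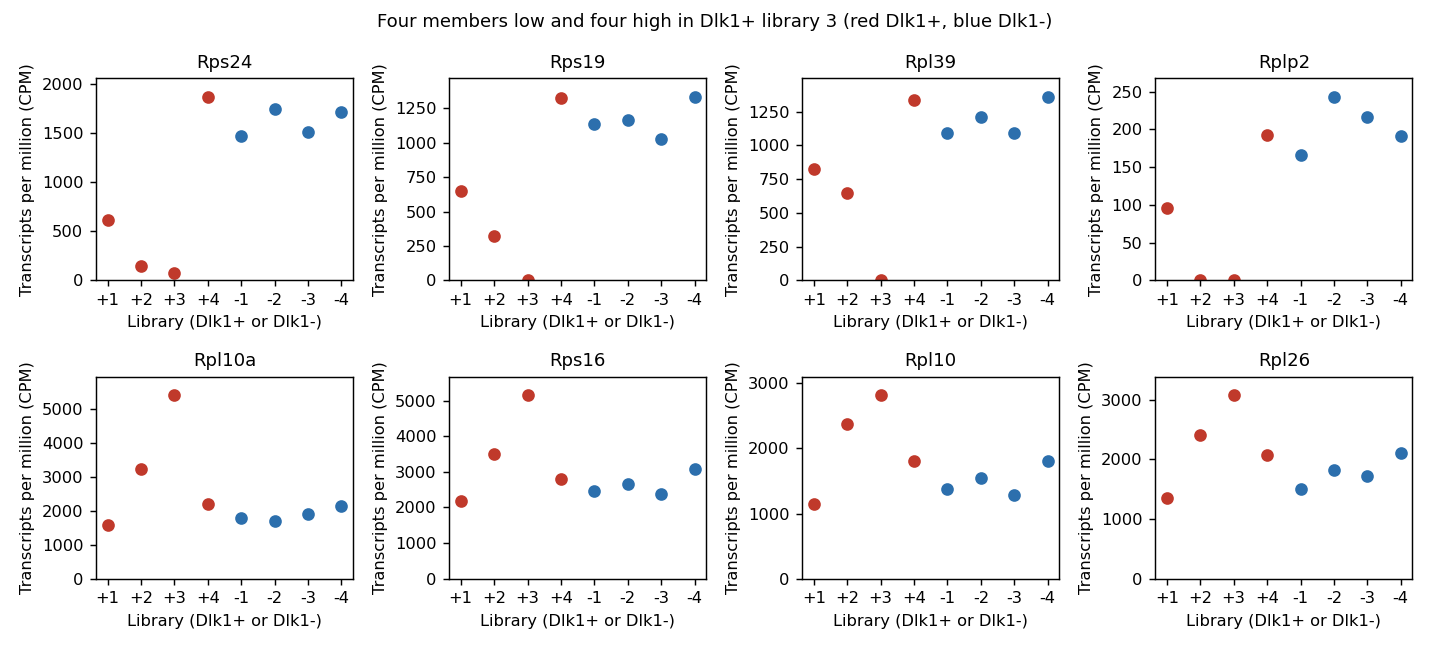
CPM (y, from 0) of 4 members that were low (upper panels) and 4 that were high (lower panels) in Dlk1+ replicate 3, in each Dlk1+ (red, +1 to +4) and Dlk1- (blue, -1 to -4) library; each point is 1 library. Rps19 and Rpl39 are at 0 in Dlk1+ replicate 3 and Rpl10a is at 5408 there, while replicate 4 lies with the Dlk1- libraries or just above them.

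To describe this per gene, each Dlk1+ library was set against the 2 Dlk1- libraries of its own plate, as log2 of CPM plus 10, over the 71 members at 100 CPM or more in Dlk1- libraries. The spread (SD over genes) was 1.61 in Dlk1+ replicate 3, 0.92 in replicate 2, 0.30 in replicate 1 and 0.13 in replicate 4. Between the 2 Dlk1- libraries of a plate it was 0.15 on plate 5 and 0.13 on plate 6. Dlk1+ replicate 4 thus differed from its plate's Dlk1- libraries no more than these differed from each other. In Dlk1+ replicate 3, 35 of the 71 members were below -1 and 7 above 0.5, while 4 and 12 were so in replicate 2, and 4 and 0 in replicate 1. Of 1067 other genes at the same minimum level, 33.6% were below -1 in replicate 3, 11.06% in replicate 2 and 2.44% in replicate 1.

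Counting error is large in the shallowest library and was set beside the lowest members. At its depth the Dlk1- libraries of plate 6 would give 47.9 UMIs of Rpl39 and 46.1 of Rps19, and 0 were found of each. Against the floor of 3 counts per library, Rpl39 was at least 15.98-fold lower and Rps19 at least 15.38-fold lower. Rps24 had 3 UMIs where 63.1 would be given, a ratio of 0.048 with an exact 95% Poisson interval of 0.010 to 0.139. Rpl30 had 4 where 51.9 would be given. At the other end Rpl10a had 211 UMIs where 79.04 would be given, 2.67-fold higher with an interval of 2.32 to 3.06, and Rps16 had 201 where 106.9 would be given. These intervals cover counting error in that library only.

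In Dlk1+ replicate 2, on the other plate, Rps24 had 15 UMIs where 165.01 would be given by its own Dlk1- libraries and Rplp2 had 0 where 20.98 would be given, at least 6.99-fold lower against 3 counts. Of the members reported by name, all of the 10 lowest in replicate 3 were below 0 in replicate 2 and all of the 10 highest were above 0, where 45 of the 71 members were above 0 in all. For Rpl30, Rpl34, Rpl35a and Rpl36 of the low set the 95% Poisson interval of the ratio in replicate 2 included 1. Over the 71 members the log2 ratios of the 2 libraries, which share no Dlk1- library, had a Pearson r of 0.69 and a Spearman rho of 0.87. Over 1067 other genes at the same minimum of 100 CPM these were 0.52 and 0.49. The sets were not matched for level: 53 members but only 48 other genes were at 1000 CPM or more in Dlk1- libraries. No correlation at matched level was computed. Dlk1+ replicates 1 and 3, also on different plates, had 0.52 and 0.62 over members and 0.30 and 0.25 over other genes. These points are genes of the same pairs of libraries and are not independent.

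**Figure D3:**
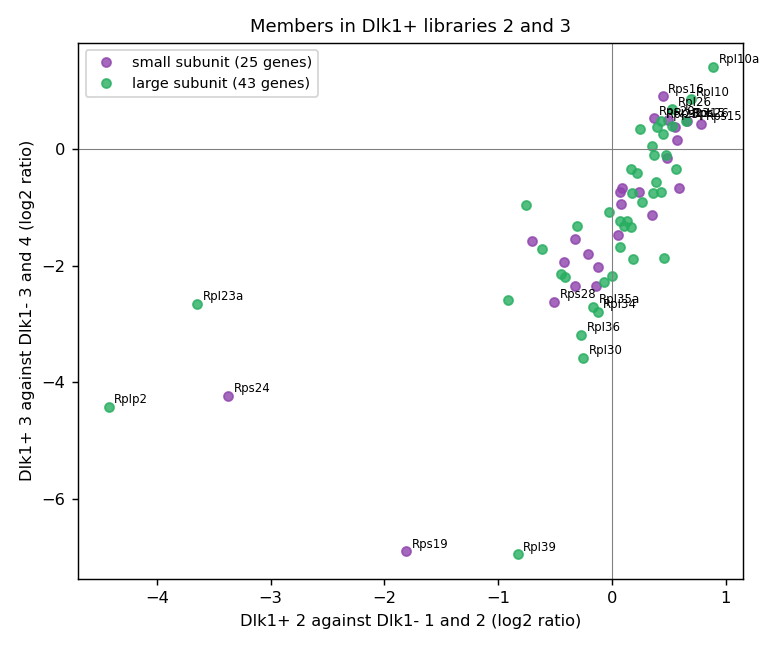
Log2 ratio of 68 members in Dlk1+ replicate 2 against Dlk1- replicates 1 and 2 (x) and in Dlk1+ replicate 3 against Dlk1- replicates 3 and 4 (y), with the 10 lowest and 10 highest of replicate 3 named. Rps24, Rplp2 and the single row Rpl23a (without its copy) are low on both axes. Rpl10a and the single row Rpl10 (without its copy) are high. Values of Rps19, Rpl39 and Rplp2 in replicate 3 are set by the added 10 CPM, since none had a UMI there.

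The 10 lowest members (Rpl39, Rps19, Rplp2, Rps24, Rpl30, Rpl36, Rpl34, Rpl35a, Rpl23a and Rps28) and the 10 highest reported (Rpl10a, Rps16, Rpl10, Rpl26, Rps20, Rps23, Rps26, Rpl15, Rpl23 and Rps15) were chosen from the 26 deeper cells of Dlk1+ replicate 3, where their summed ratio of low to high was 0.021. In the 49 cells of 500 to 1000 transcripts from the same library, which were not used for the choice, 34 UMIs of the low set stood beside 1048 of the high set, a ratio of 0.032. Rps24 had 7 UMIs in these cells, Rpl39 had 4, Rps19 had 1 and Rplp2 had 0, of 36327 UMIs in all. The ratio was 0.170 in Dlk1+ replicate 2, 0.336 in replicate 1 and 0.457 in replicate 4, and 0.442 to 0.471 in the 4 Dlk1- libraries.

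**Figure D4:**
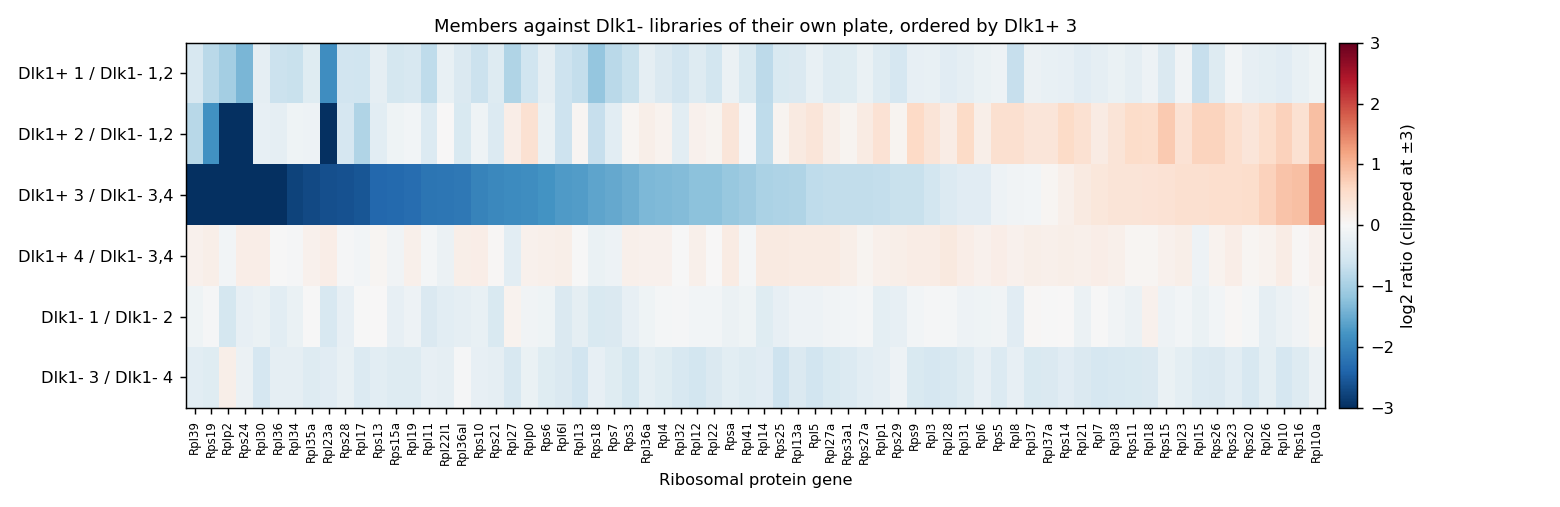
Log2 ratio (colour, clipped at 3 either way) of 68 members, in columns ordered by Dlk1+ replicate 3, for each Dlk1+ library against the Dlk1- libraries of its plate and, in the 2 lowest lines, between Dlk1- libraries. The order of replicate 3 recurs in weaker form in replicates 2 and 1, and replicate 4 stays within 0.5 of 0 for all 68.

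Genes outside the family also varied widely in Dlk1+ replicate 3. At 100 CPM or more, the median log2 ratio was -0.96 for members and -0.37 for the 1067 other genes, with spreads of 1.61 and 1.51. At 1000 CPM or more, 21 of 53 members (39.6%) and 15 of 48 other genes (31.3%) were below -1 in Dlk1+ replicate 3, and the spreads were 1.69 and 1.54. The medians there were -0.73 and -0.33. Members thus had the lower median at both levels, and this difference was not tested. Depth, cell number and these libraries go together, and their part in the pattern was not tested.

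Near-identical rows moved apart in the same library. Rpl10, which joins the large subunit late, was 1.82-fold higher in Dlk1+ replicate 3 than in the Dlk1- libraries of its plate, while the row Rpl10-ps3 had 1 UMI there, 25.6 CPM against 827 and 1217 CPM. Their sum was 1.11-fold there and 1.06-fold in Dlk1+ replicate 2. Rps26, a protein of the mRNA exit channel, was 1.41-fold while Rps26-ps1 was 0.20-fold, at 7 UMIs, and their sum was 1.00-fold. For Rpl23a the copy Rpl23a-ps3 carried most of the signal: the member was 0.12-fold, the copy 0.76-fold and the sum 0.72-fold in Dlk1+ replicate 3, and 0.041, 1.35 and 1.23-fold in replicate 2. Rpl21 and Rpl21-ps4, with 0 UMIs in the copy, gave a sum of 1.11-fold. Over the 8 pairs in which both rows were at 100 CPM or more, the sum ranged from 0.22 to 1.11-fold, and the copy had the lower ratio of the pair in 6, in Dlk1+ replicate 2 as well. For Rpl13, Rpl27, Rpl36 and Rps18 both rows were low and so were their sums, at 0.22 to 0.30-fold.

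Transcript features were weakly related to the order of the members. Over 70 members with an annotated coding transcript, the Spearman correlation with the log2 ratio in Dlk1+ replicate 3 was 0.19 for transcript length, 0.22 for coding length, -0.01 for 3′ UTR length, 0.33 for GC content of the last 100 bases and -0.04 for the share of windows found in other genes. For GC content of the last 100 bases it was 0.33 in Dlk1+ replicate 2 as well, and the median was 36% in the 10 lowest and 44.5% in the 10 highest members. The level in Dlk1- replicates 1 and 2 had 0.54, so less abundant members tended to be lower. Of the 10 lowest members 2 of 7 with a start sequence had the C and pyrimidine start shown above (Rplp2 and Rpl35a), and of the 10 highest 1 of 9 (Rpl15).

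The members known from Diamond-Blackfan anaemia lay on both sides in Dlk1+ replicate 3. Besides Rps19 and Rps24, Rpl35a was at 230 CPM, Rps10 at 230 CPM, Rps7 at 307 CPM, Rpl11 at 179.2 CPM and Rpl5 at 1255 CPM in Dlk1+ replicate 3, each below the lowest Dlk1- library. Rps26 at 2484 CPM and Rpl26 at 3074 CPM were above the highest. In Dlk1+ replicate 4 the 9 genes reported ran from 0.89 to 1.19 times the mean of the Dlk1- libraries of its plate. Rpl5 and Rpl11, which together bind Mdm2 when ribosome assembly fails, had group means of 2028 ± 647 and 467 ± 267 CPM in Dlk1+ against 2070 ± 359 and 752.5 ± 153.6 CPM in Dlk1- (SD, n = 4).

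The stalk proteins, which recruit elongation factors, also differed among themselves. Rplp0 was at 1019, 2120, 486 and 1970 CPM in Dlk1+ and 1490 to 1912 CPM in Dlk1- libraries. Rplp1 was at 1733, 3078, 1664 and 3038 CPM against 2059 to 3019 CPM. Rplp2 was at 96.1, 0, 0 and 193 CPM against 166.2 to 243.1 CPM. Rplp1 was thus higher in Dlk1+ replicate 2 than in any Dlk1- library, while Rplp2 was at 0 there.

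Other genes of the translation machinery gave 0 calls in either direction in each list. The median log2 fold change was 0.19 for 7 tested elongation factors, -0.07 for 30 initiation factors, -0.19 for 19 other mRNAs known for a 5′ TOP tract, -0.03 for 37 ribosome biogenesis genes, -0.17 for 48 mitochondrial ribosomal proteins and 0.03 for 11 genes of growth control. All are beside -0.04 for all genes.

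Across cells the share varied around a common level. The median share per cell was 8.81%, 11.9%, 9.88% and 12.6% in Dlk1+ and 10.16%, 10.96%, 10.15% and 12.9% in Dlk1- replicates 1 to 4. Cells under 5% made up 3.19% to 16.8% of a library, and the lowest cells were under 1% in 7 of 8 libraries. Within a library the share followed depth weakly, with Spearman rho from -0.26 to 0.34 over 26 to 96 cells. It was lower in cells with more Gm10800 and Gm26870, with rho from -0.84 to -0.60, both being shares of the same total.

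The groups overlapped at matched depth. Among cells of 2000 to 4000 transcripts the share was 8.82% (40 cells), 12.6% (19), 9.81% (4) and 11.7% (20) in Dlk1+ replicates 1 to 4 and 9.62% (20), 8.82% (4), 7.68% (28) and 11.4% (19) in Dlk1-. Among cells of 4000 to 8000 it was 8.73%, 10.7% and 13.3% in Dlk1+ replicates 1, 2 and 4, with no cell in replicate 3, and 10.1%, 12.2%, 10.8% and 13.5% in Dlk1-. Cells of 1000 to 2000 transcripts numbered 22 in Dlk1+ replicate 3 and 1 to 6 in each other library, so a comparison at the depth of replicate 3 rests on very few cells. With every cell thinned to 1000 UMIs, the means were 10.7% ± 1.95 and 10.8% ± 1.46 (SD, n = 4).

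**Figure D5:**
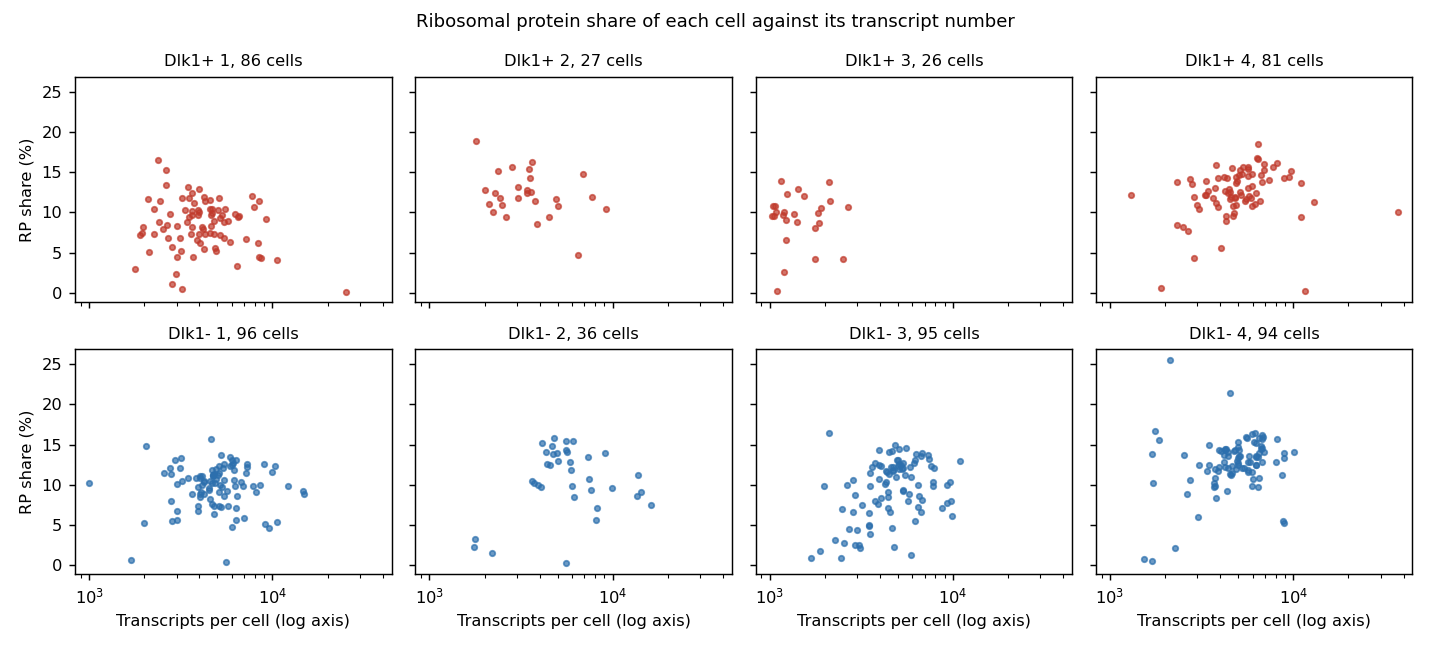
Ribosomal protein share of each cell in percent (y) against its transcript number (x, log axis), 1 panel per library with its number of cells. Most cells lie between 5% and 16% in each panel, and the cells of Dlk1+ replicate 3 lie near 1300 transcripts, where other libraries hold few cells.

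Members varied together from cell to cell. In the 7 libraries with at least 20 cells at 2000 UMIs (25 to 93 cells, each thinned to 2000), the Pearson r between summed small and summed large subunit UMIs was 0.82 to 0.91. The number of ribosomal protein UMIs varied 11.5 to 30.2 times as much as binomial sampling gives. This ratio was 23.9 to 30.2 in Dlk1+ replicate 1 and Dlk1- replicates 2 and 3. There 11.1% to 16.8% of cells had a ribosomal protein share under 5%. It was 11.5 to 15.1 in Dlk1+ replicates 2 and 4 and Dlk1- replicates 1 and 4, where 3.19% to 4.17% of cells had such a share. Cells of low share were kept, and their part in the co-variation was not tested. The median r over pairs of members was 0.117 to 0.277, while pairs of other genes of at least 1 UMI per cell had 0.020 to 0.070. Pairs of a member and another gene had 0.047 to 0.135. Members and other genes shared this minimum but were not matched for level. Pairs within a subunit and pairs across subunits had nearly the same median, 0.143 and 0.137 in Dlk1- replicate 1 for example. Dlk1+ and Dlk1- libraries overlapped in each of these measures. Dlk1+ replicate 3 entered only at 1000 UMIs, where its r between subunits was 0.78 over 26 cells and the other libraries had 0.69 to 0.89.

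Part of this went with the shared total. With Gm10800, Gm26870 and mitochondrial genes taken out before thinning, the r between subunits was 0.66 to 0.82 and the median pair r 0.049 to 0.116 in 6 libraries, while other genes had -0.009 to 0.006. Among 55 members measured in all 7 libraries, the median correlation with the sum of the other members was 0.43. Among the highest were Rps3a1 (0.56) and Rpl10a (0.55), and it was lowest for Rpl15 (0.19), Rpl18 (0.32) and Rpl8 (0.33), the last a protein near the peptide-bond centre. Rpl15 ranged from 0.089 to 0.520 over the libraries and Rps3a1 from 0.246 to 0.655, so these orders overlap. All of these are measures across cells that share depth and total, and are given as descriptions.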

How the data were processed

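The members and gene lists were chosen with earlier results of these data known. Per the labels' protocols, libraries follow mCEL-Seq2; alignment used BWA 0.6.2-r126 to mm10, per the submitters' processing notes, and the annotation is not given in the sources used here. The authors deposited 1 table per library of estimated counts (other unit: transcripts corrected for UMI collisions, so not whole); inverting the correction gave whole UMIs within 3.64e-12 of a whole number (tolerance 1e-06).

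Cells were barcodes of the library's own range, without 10 barcodes that carried many UMIs in the Dlk1- libraries although outside their range, with at least 1000 transcripts. No doublet caller was run; cells of very high transcript number were left out in an alternative. Counts were summed per library (39073 to 517559) and rounded, and 5666 genes were kept (in 4 or more libraries a CPM worth 10 counts in a library of median size, and a total of 15 or more). The planned edgeR test was not used because the unit could not be verified automatically; limma-voom from limma 3.58.1 (R 4.3.3), listed beforehand as another choice, was used in its stead, with TMM scaling, group as the only term and Benjamini-Hochberg adjustment. It was tested on simulated data. Thinning, shares and correlations used Python 3 with fixed seeds. Log2 ratios within a plate used CPM plus 10. Gene models were GENCODE M21 (GRCm38) and start sequences RefSeq (GRCm38.p6).

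Named genes were the 10 of highest mean CPM, the 5 highest and 5 lowest log2 fold changes, fixed paralogue pairs, stalk proteins, anaemia genes, and the 3 highest and 3 lowest correlations with the other members; genes named for their place in Dlk1+ replicate 3 or for near-identical copies were chosen after their values were seen. Some members named by these rules are not reported here. Alternatives covered scaling, filters, cell minimum, thinning, denominators, blocks and leaving out each library.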

Additional observations from a re-analysis of the deposited data

Results flagged for a closer look

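Of 72 groups of 4 libraries, 7 held a library far from the other 3 (gap over range above Dixon's 95% critical value), where chance flags about 1 in 20. No value of Dlk1+ replicate 3 was among them, since replicate 2 or 1 lay on its side. Dlk1- replicate 4 was the highest of its group for 4 genes. Rpl3 was at 2165 CPM there against 1496 to 1529 CPM, and Rpl35a at 1757 against 1327 to 1350. Rps14 was at 2957 CPM against 2330 to 2414, and Rps9 at 3322 against 2364 to 2501. This library also had the lowest share of Gm10800 and Gm26870 of its group, 11.7%, and the part of that in these levels was not tested. Rps27 was at 17.4 CPM in Dlk1- replicate 2 against 4.19 to 6.31 CPM, which rests on 4 UMIs there against 2 to 3 UMIs. Rpl10l at 5.06 CPM in Dlk1+ replicate 1 and Rpl39l at 2.19 CPM in Dlk1+ replicate 4, with 0 in the other 3 libraries, rest on 2 UMIs and 1 UMI.

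Barcodes that no cell was assigned to also carried ribosomal protein UMIs. In the unused barcode range of the 8 libraries there were 1465 of 23663 UMIs, 5.78% to 6.71% per library. On the 10 barcodes set aside in the Dlk1- libraries there were 819 of 25978 UMIs, 2.89% to 3.33%.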

How the results depend on the processing

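No member passed the test under 23 of 24 alternatives; without Dlk1+ replicate 4 there were 2, so leaving out a library gave 0 to 2. The median log2 fold change of members ranged from -0.40 to -0.06 when a library was left out. With cells of 1000 to 2000 transcripts only, it was 1.12, but 24 genes and 3 members remained and 1 to 6 cells stood in each of 7 libraries. In those cells the share difference was 4.64 percentage points and the subunit ratio difference 0.028. Leaving out a library moved the share difference from -1.11 to 0.40, above 0 without Dlk1+ replicate 1 and without Dlk1- replicate 4 (0.28), and the ratio difference from -0.049 to -0.013. The r between subunits (median over libraries, 0.886) was 0.793 at 1000 UMIs, 0.811 without Gm10800 and Gm26870 and 0.755 also without mitochondrial genes; leaving out a library gave 0.884 to 0.886. Leaving out a library moved the median pair r from 0.141 to 0.186 and the variance ratio from 14.96 to 19.48. Over all alternatives these medians over libraries ranged from 0.087 to 0.195 and from 9.87 to 21.8. With no filter on low counts the median of all genes was 0.24. Of the 9 named fold changes, Rps23 turned to -0.030 with cells of at least 2000 transcripts and Rps16 to -0.031 without Dlk1+ replicates 2 and 3. The cause was not tested. The limma-trend test, the joint removal of Gm10800, Gm26870 and mitochondrial genes, and the removal of Dlk1+ replicates 2 and 3 were chosen after seeing the data. The DESeq2 alternatives were not run.

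Same-numbered libraries correlated at 0.052, 0.037, 0.050 and 0.064 (deviations from group means), each highest for its own number but none above 0.1. The main test did not pair libraries by number, and correlations of this size do not exclude a pairing. With a replicate block, 1 gene and 0 members passed and the members' median was -0.25. Dlk1+ replicate 3, with 3620 ribosomal protein UMIs, limits every value that rests on it.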
